A study of Mus musculus with 4 samples.

Results

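The genes described here are 38 genes of the extracellular matrix other than collagens: elastin and its cross-linking enzymes (4 genes), microfibril genes (8), fibulins (5), proteoglycans (7), matricellular genes (9) and adhesive and other glycoproteins (5). They were found by symbol and make up 38 of the 30406 genes listed at every stage. The cells came from WT female mouse mammary tissue (strain C57B6, with no transgene and no treatment), taken on the day of birth (P0) and at the embryonic (E) stages E13.5, E14.5 and E15.5. Embryos of several dams were pooled for each stage, and cells without CD45, CD31 and Ter119 were sorted with and without EpCAM, so that leukocytes, endothelium and red blood cells were gated out. Droplet-based 3′ single-cell RNA sequencing gave 1 library per stage, so no value has a replicate, stage and library cannot be told apart, and differences are described without tests. The buds were dissected along with the mesenchyme around them. Mesenchymal cells were those with at least 5000 UMIs (unique molecular identifiers, each a distinct transcript molecule), at most 6% mitochondrial UMIs, and at least 10 UMIs of Col1a1, Col1a2 and Col3a1 that exceeded 2 times the UMIs of Epcam, Krt8, Krt18, Krt5 and Krt14. Epithelial cells met the reverse rule. This gave 704 mesenchymal and 898 epithelial cells of the 1630 kept.

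Elastic fibers give skin, vessels and other tissues their recoil. They form when tropoelastin, the product of Eln, is deposited on a scaffold of fibrillin microfibrils and cross-linked by lysyl oxidases, with fibulins and microfibril-associated proteins helping assembly. Small leucine-rich proteoglycans bind collagen fibrils and regulate their growth, versican fills the provisional matrix of young tissues, and matricellular proteins act as signals in the matrix more than as structural parts. In the mammary gland this matrix surrounds the bud and later the branching ducts, and fibroblasts are its known main source.

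The mesenchyme held 129 cells at E13.5 and 31 at E14.5, then 279 at E15.5 and 265 at P0, with median depths of 16573, 24268, 24324 and 8778 UMIs. The epithelium held 98, 45, 526 and 229 cells in the same order. The keratin rule does not separate mammary epithelium from epidermis: at E15.5 a cluster of 13 cells was led by Krt1, Sprr1b and Krt10, genes of the cornifying epidermis. At E13.5 a cluster of 22 of the 98 cells was led by Pthlh, Msx1 and Ndnf, which the study names among key regulators of mammary bud epithelium. The larger E13.5 clusters were led by other genes. The study removed contaminating skin cells and gives 22 mammary epithelial cells at E13.5, with the same UMI and mitochondrial limits. Most of the 98 epithelial cells here thus lay outside its mammary set at that stage. The share of skin cells in the epithelium of each stage was not measured here. That share cannot be told apart from stage in the epithelial levels. No barcode was shared between libraries among the kept cells. The 8 mesenchyme markers that the rule did not use (Pdgfra, Pdgfrb, Twist1, Twist2, Prrx1, Col5a1, Col6a1 and Col6a2) summed to between 2224 and 4839.9 CPM (UMIs per 1000000 UMIs of the same cells) in mesenchyme and to between 26.8 and 51.1 CPM in epithelium. Epithelial markers summed to between 7.16 and 84.2 CPM in mesenchyme. The 4 immune markers summed to at most 1.19 CPM in any mesenchyme, with Ptprc at 0 in all 4 libraries. Endothelial markers summed to between 15.1 and 35.8 CPM and pericyte and smooth muscle markers to between 27.3 and 60.9 CPM. The cartilage and bone genes (Sox9, Acan, Col2a1 and Runx2) summed to between 39.8 and 284 CPM, highest at P0. Only Acan of these 4 was at 0 in every mesenchyme. At P0, 91 of the 265 mesenchymal cells (34.3%) had 3 or more UMIs of these genes. Over the P0 clusters described below they summed to between 85.4 and 454 CPM, and their part in the levels was not tested. Red blood cell genes stood apart at P0 only, where they summed to 3543 CPM through 2 cells. At E13.5, 14 of the 129 mesenchymal cells lay near the limits of the rule, against 0, 0 and 5 in the later libraries. A 3′ library counts each molecule once whatever its length, so levels in CPM need no division by length, but capture differs between genes and only large differences between genes are described.

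RefSeq promoter windows (build GRCm38.p6) matched 22 of the 38 genes. The last 100 bases before the start site are shown for 2 genes that were far higher at P0 (Postn and Ecm1), for the fibrillin gene that was (Fbn1), and for a microfibril gene whose level was nearly even over the stages (Mfap2, with both of its annotated starts), each 5′ to 3′ on the gene's strand. Capitals mark the letters TATAAA or GGGCGG, searched on both strands; the 2 motifs do not overlap each other.
Postn: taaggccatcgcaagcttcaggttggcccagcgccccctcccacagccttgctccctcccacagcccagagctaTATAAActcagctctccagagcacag
Ecm1: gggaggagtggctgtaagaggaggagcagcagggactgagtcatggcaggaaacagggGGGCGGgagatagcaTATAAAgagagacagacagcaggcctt
Fbn1: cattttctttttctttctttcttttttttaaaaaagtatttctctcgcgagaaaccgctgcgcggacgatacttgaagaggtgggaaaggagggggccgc
Mfap2 first start: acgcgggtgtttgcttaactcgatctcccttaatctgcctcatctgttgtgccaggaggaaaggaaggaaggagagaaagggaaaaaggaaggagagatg
Mfap2 second start: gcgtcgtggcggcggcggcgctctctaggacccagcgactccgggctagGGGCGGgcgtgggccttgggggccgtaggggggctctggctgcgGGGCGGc
The windows are chr3:54361007-54361106 on the plus strand (Postn, for 1 of its 2 starts), chr3:95739570-95739669 on the minus strand (Ecm1), chr2:125506439-125506538 on the minus strand (Fbn1), and chr4:141010324-141010423 and chr4:141010581-141010680 on the plus strand (Mfap2). TATAAA began 26 bases before the shown start of Postn and 27 bases before that of Ecm1. The 100 bases before the other Postn start, not printed, held no TATAAA. Of all 32851 promoters, 1.99% had TATAAA on the gene's strand beginning 40 to 20 bases before the start. Of the 32 promoters of the matched genes 2 had it, those of Postn and Ecm1. No other matched gene had TATAAA in its last 100 bases on either strand. Aspn, Ogn, Thbs2 and Tnc had it only further out, within 250 bases. Of these, Aspn, Ogn and Thbs2 were called higher at P0 than at E13.5, as were 31 of the 37 members tested, while Tnc was lower at P0 than at E15.5. Within 250 bases on either strand it was in 7 of the 32 promoters and in 12.4% of all promoters. GGGCGG was in the last 100 bases of 15 of the 32 promoters and of 24.7% of all promoters. The second Mfap2 window is 80.0% G and C with 2 copies of GGGCGG, the Fbn1 window 44.0% with none. A match of letters is a description of the sequence, not of a binding site.

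The 38 genes took up more of the mesenchymal transcripts at P0 than at any embryonic stage. Together they made 0.578%, 0.865%, 0.955% and 4.3% of all UMIs of the mesenchyme from E13.5 through E14.5 and E15.5 to P0, while the 3 collagens of the rule went from 0.497% to 7.58%. The matricellular genes had the largest share at P0, at 2.02%, followed by the proteoglycans at 0.943% and the microfibril genes at 0.597%. In the epithelium of the same libraries all 38 genes made 0.0888%, 0.0889%, 0.109% and 0.227%.

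**Figure D1:**
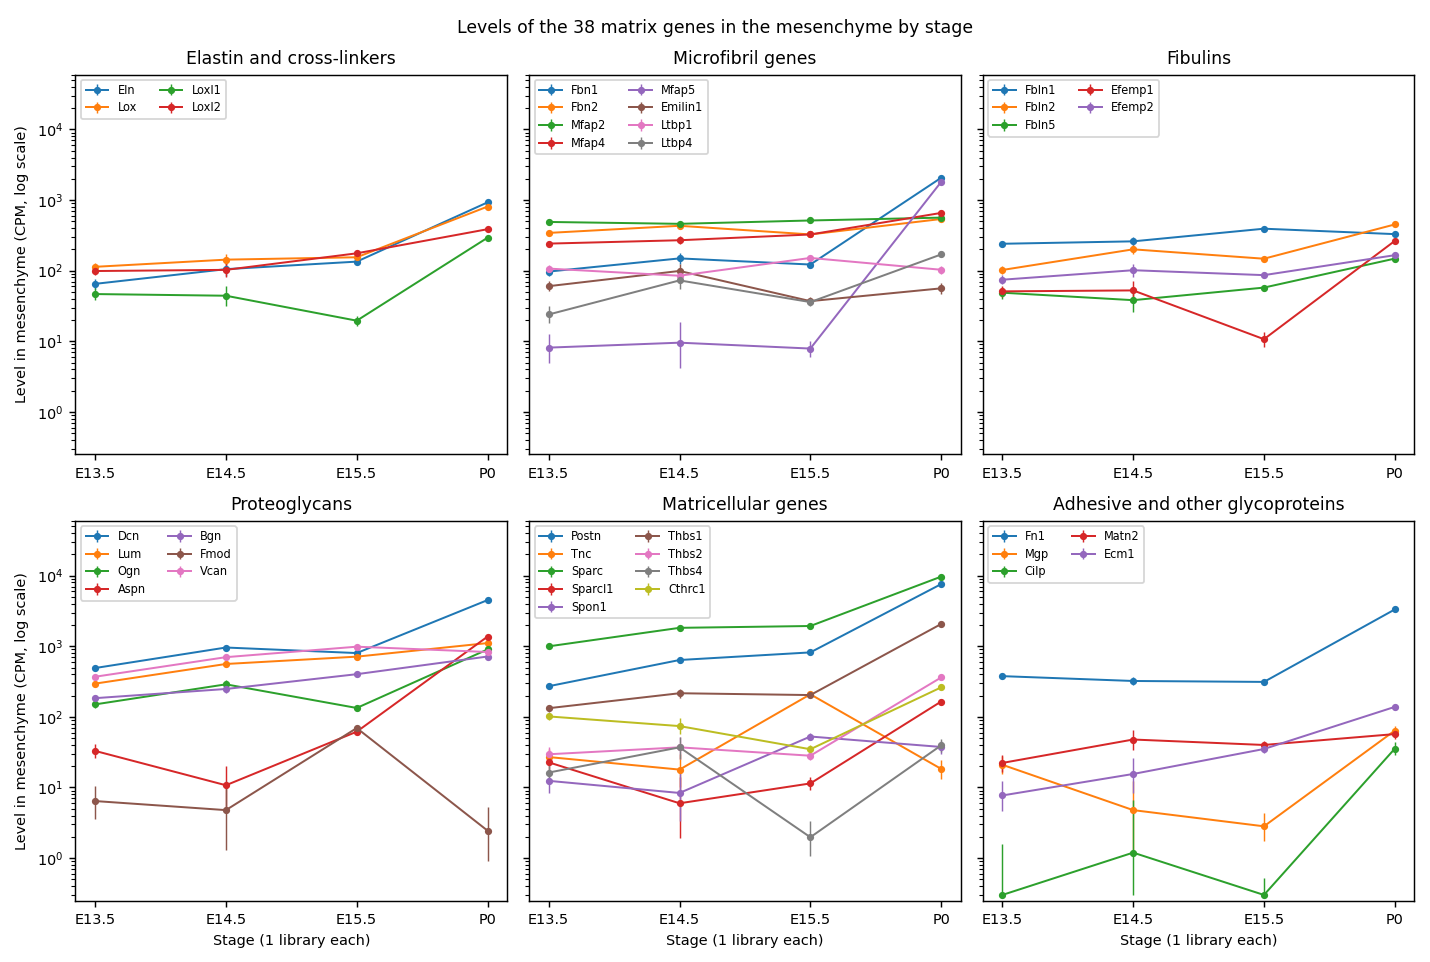
Level of each of the 38 genes in the mesenchyme (CPM, log axis) at each of the 4 stages, in 6 panels by kind of matrix gene. Points are summed UMIs of 1 library and bars the exact 95% Poisson interval; the 2 values of 0 (Cilp at E13.5 and E15.5) are drawn at the lower edge. Most lines run level through the embryo and climb at P0; Tnc and Fmod peak at E15.5.

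Between E13.5 and P0, 31 of the 37 members tested were at least 2-fold higher and 0 were 2-fold lower. A gene was tested when its mean over the 2 groups reached 10 CPM, and called when its ratio passed 2-fold. Over all 8318 genes tested, 13.7% were called higher and 33.1% lower at P0. The median ratio of the members was 4.42, beside 0.684 over all genes. With median-of-ratios scaling instead of CPM, which raised all P0 over E13.5 ratios so that the median of all genes was shifted by 0.70 on the log2 scale, 33 members were called higher and 0 lower, and of all genes 2062 higher and 1175 lower; of the called genes, 29.3% were higher in CPM and 63.7% with that scaling.

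Between E15.5 and P0, 25 of 38 members were called higher and 2 lower, where 14.1% and 23.9% of all 7893 genes tested were. Between E13.5 and E15.5, 9 of 35 were called higher and 4 lower, against 5.32% and 9.36% of 8289 genes. The comparisons share libraries and are not independent. With median-of-ratios scaling the members called were 30 higher and 2 lower at P0 against E15.5 and 13 and 4 at E15.5 against E13.5, while the share of called genes that were higher went from 37.2% to 62.1% and from 36.2% to 58.3%. With E14.5 in place of E13.5, a comparison added after the data were seen, 5 of 34 members were higher and 7 lower at E15.5 (4.04% and 13.7% of all 8367 genes), and 26 of 37 were higher and 0 lower at P0 (11.9% and 35% of all 8412 genes). P0 tissue was also dissociated differently from embryonic tissue, with other enzyme amounts and a red blood cell lysis step, and was shallower. These cannot be told apart from age. The mix of mesenchymal cells differed as well: the dermal mesenchyme-like cluster described below made 50.4% of them at E13.5 and 26.5% at E15.5. The part of this mix in the stage differences was not tested.

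**Figure D2:**
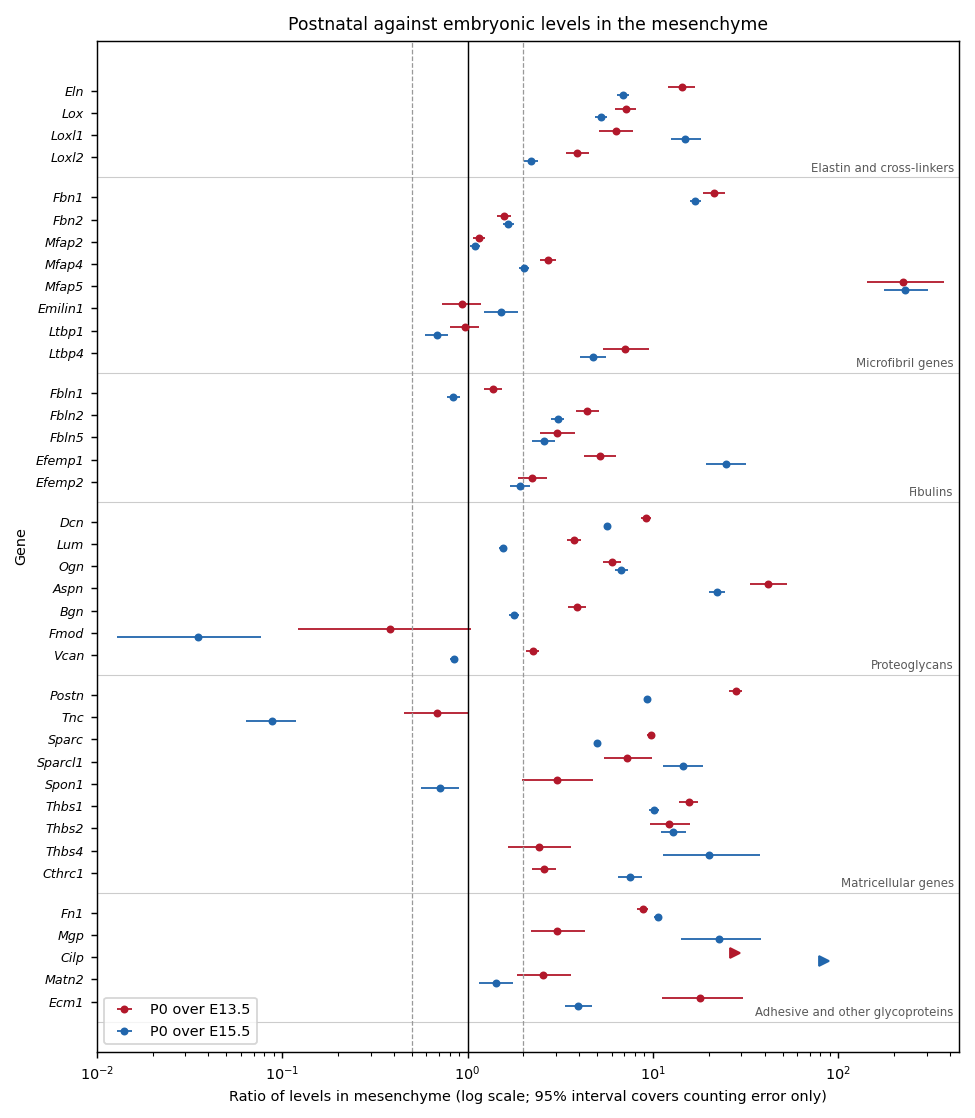
Ratio of the level at P0 to that at E13.5 (red) and at E15.5 (blue) in the mesenchyme, log axis, with exact 95% intervals for counting error; triangles are lower bounds for Cilp, which had 0 UMIs at both embryonic stages. Dashed lines mark 2-fold in both directions; Mfap5 lies near 200 for both, Mfap2 near 1, and Tnc and Fmod lie below 0.1 against E15.5.

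Elastin and all 3 lysyl oxidase genes were called higher at P0 against both E13.5 and E15.5. Eln, which encodes tropoelastin, was at 65 CPM at E13.5 and 105 at E14.5, then 134 at E15.5 and 928 at P0, 14.3-fold (12.1 to 16.9) higher at P0 than at E13.5 (95% interval for counting error in parentheses, here and below). Its 4 levels stood in the order of age. At E15.5 it was 2.07-fold (1.74 to 2.47) above E13.5, and at P0 6.91-fold (6.4 to 7.46) above E15.5.

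Elastin transcripts were unevenly spread over P0 cells. Eln UMIs were found in 45%, 90.3%, 85.7% and 69.4% of mesenchymal cells in the order of the stages, or in 26.4%, 45.2%, 41.2% and 57.7% after every cell was thinned to 5000 UMIs. The median P0 cell held 187 CPM and the highest 32254 CPM, and the 10% of cells with most Eln UMIs held 68.1% of them. For Lox, the corresponding 10% of cells held 30.2%.

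The lysyl oxidases, copper enzymes that start the cross-links of elastin and collagen, followed different courses before birth. Lox stood at 113, 143, 155 and 809 CPM in the same order of stages, 7.14-fold (6.27 to 8.14) higher at P0 than at E13.5. Loxl2, known for its action on basement membrane collagen, stood at 98.8, 103, 176 and 387 CPM and was 3.91-fold (3.39 to 4.54) higher. Loxl1, which is tied to elastin assembly, stood at 46.6, 44.2, 19.6 and 293 CPM. Over all mesenchymal cells Loxl1 alone of the 3 dipped at E15.5, 2.38-fold (1.84 to 3.08) below E13.5. Its level at P0 was 15-fold (12.5 to 18.1) above E15.5. Without cycling cells the dip was 1.84-fold, short of the 2-fold call. Within the dermal mesenchyme-like clusters described below Loxl1 was at 65.4 CPM at E13.5 and 79.8 CPM at E15.5. In the sub-epithelial mesenchyme-like ones it was at 11.8 and 2.7 CPM, and in the proliferating ones at 45.2 and 3.37 CPM.

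In CPM, microfibril genes divided into 4 that were called higher at P0 than at E13.5 and 4 that were not. Fbn1, the main fibrillin of postnatal tissue, stood at 97.1, 149, 122 and 2069 CPM and was 21.3-fold (18.7 to 24.5) higher at P0 than at E13.5. Fbn2, the fibrillin best known from embryonic tissue, stood at 343, 432, 326 and 539 CPM, a ratio of 1.57-fold (1.44 to 1.72). That ratio was not called in CPM, but it was 2.49 with median-of-ratios scaling, past the 2-fold limit. The balance of the 2 fibrillins was turned at P0: Fbn2 exceeded Fbn1 in each embryonic library and Fbn1 exceeded Fbn2 at P0.

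Mfap5, whose product MAGP-2 binds microfibrils, showed the largest P0 over E13.5 ratio of the 37 members that had UMIs at E13.5. It stood at 8.13, 9.55, 7.88 and 1808 CPM, 222-fold (142 to 369.9) higher at P0 than at E13.5 and 229-fold (176 to 304) higher than at E15.5. Mfap5 UMIs were found in 4.65%, 6.45%, 2.87% and 87.9% of the cells. Its close relative Mfap2, which encodes MAGP-1, stood at 489.7, 461, 514 and 564 CPM, and its P0 level was 1.15-fold (1.06 to 1.25) that of E13.5. Mfap2 was thus nearly even over the 4 libraries in CPM and within a 2-fold range with the other scaling, where the ratio was 1.82.

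Mfap4, an elastic fiber-associated glycoprotein, stood at 242, 269.7, 325 and 657 CPM, 2.72-fold (2.47 to 3.0) higher at P0 than at E13.5. Ltbp4, which holds latent TGF-beta in the matrix and takes part in elastic fiber assembly, stood at 24, 72.8, 35.9 and 169.7 CPM and was 7.09-fold (5.35 to 9.54) higher. Its relative Ltbp1 stood at 107, 84.7, 151 and 103 CPM, with a P0 over E13.5 ratio of 0.963-fold (0.805 to 1.15). Emilin1, found at the interface of elastin and microfibrils, stood at 60.3, 99, 37 and 56.2 CPM, with a ratio of 0.931-fold (0.731 to 1.19). Neither Ltbp1 nor Emilin1 was called, and with median-of-ratios scaling both ratios lay on the other side of 1, at 1.53 and 1.47.

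Of the 5 fibulins, 4 were called higher at P0 than at E13.5. Efemp1, encoding fibulin-3, stood at 50.9, 52.5, 10.7 and 264 CPM and was 5.18-fold (4.26 to 6.35) higher at P0 than at E13.5 and 24.7-fold (19.4 to 31.7) higher than at its low point at E15.5. Fbln2 stood at 102, 200.5, 148 and 451 CPM, 4.42-fold (3.84 to 5.1) higher. Fbln5, needed for elastic fiber formation, stood at 48.8, 38.2, 57.6 and 148 CPM, 3.04-fold (2.46 to 3.78) higher, and Efemp2, encoding fibulin-4, which brings lysyl oxidase to tropoelastin, at 74.4, 101, 86.4 and 166 CPM, 2.23-fold (1.86 to 2.67) higher. Fbln1 differed from these: it stood at 240.4, 260.1, 393 and 329 CPM, highest at E15.5 in CPM but not with the other scaling, with a P0 over E13.5 ratio of 1.37-fold (1.23 to 1.53) that was not called in CPM and reached 2.17 with the other scaling.

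Among proteoglycans, all 6 that could be tested were called higher at P0 than at E13.5. Dcn (decorin, which coats collagen fibrils) stood at 491, 959, 801 and 4506 CPM, 9.17-fold (8.63 to 9.75) higher. Aspn (asporin) stood at 32.9, 10.7, 61.6 and 1370.3 CPM and was 41.6-fold (33.2 to 52.9) higher. Aspn was found in 20 of 129 cells at E13.5, in 9.68% at E14.5, in 21.9% of cells of E15.5, and in 94.3% of P0 cells despite their lower depth.

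Ogn (osteoglycin, or mimecan) stood at 150.1, 289, 134 and 901 CPM, 6.01-fold (5.36 to 6.74) higher at P0. Lum (lumican) stood at 296, 561, 712 and 1109 CPM, 3.75-fold (3.45 to 4.08) higher, and was already 2.41-fold (2.23 to 2.61) above E13.5 at E15.5. Bgn (biglycan) stood at 184, 248, 402 and 715 CPM, 3.89-fold (3.5 to 4.33) higher. Vcan (versican), the large proteoglycan of provisional matrix, stood at 369.9, 700.5, 986 and 829 CPM: it was 2.66-fold (2.48 to 2.86) higher at E15.5 than at E13.5 and not called between E15.5 and P0, a ratio of 0.841-fold (0.80 to 0.884) whose direction the other scaling turned.

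Fmod (fibromodulin) had a course of its own among the proteoglycans. It stood at 6.42, 4.77, 69.4 and 2.44 CPM, from 15, 4, 493 and 6 UMIs, so that E15.5 was 10.8-fold (6.49 to 19.5) above E13.5 and P0 28.4-fold (13 to 77.8) below E15.5. Tnc (tenascin-C), a matricellular glycoprotein of embryonic mesenchyme around epithelial buds, peaked at the same stage. Tnc stood at 26.9, 17.9, 209 and 18.3 CPM, 7.75-fold (6.02 to 10.1) higher at E15.5 than at E13.5 and 11.4-fold (8.47 to 15.7) lower at P0 than at E15.5. These were the 2 members called lower at P0 than at E15.5, and their share of cells moved with the level: Tnc was found in 21.7%, 12.9%, 73.5% and 9.43% of cells and Fmod in 6.98%, 12.9%, 48.4% and 1.13%. The E15.5 table was made with another version of the counting software (3.1.0 in its header, 6.0.0 in the others) and a different gene list; its part in these peaks was not tested. By GENCODE M21 positions, no exon of a member is overlapped on the same strand by an exon of another gene in the E13.5 or E15.5 gene list.

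Among the matricellular genes 8 of 9 were called higher at P0 than at E13.5. Postn (periostin), which links collagen to cells and other matrix proteins, stood at 272, 638, 818 and 7594 CPM, 28-fold (25.8 to 30.3) higher. Sparc (osteonectin), a collagen-binding glycoprotein, had the highest level of all members in each library, at 997, 1823, 1936 and 9689.5 CPM, 9.72-fold (9.31 to 10.1) higher. Both were found in over 99% of P0 mesenchymal cells.

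Thrombospondins 1 and 2, which bind cell-surface receptors and limit angiogenesis, were both far higher at P0. Thbs1 stood at 133, 216, 203 and 2067 CPM, 15.6-fold (13.9 to 17.5) higher, and Thbs2 at 29.5, 37, 28.1 and 361 CPM, 12.2-fold (9.58 to 15.9) higher. The 6 genes known to be induced by tissue dissociation (Fos, Jun, Junb, Egr1, Atf3 and Ier2, chosen after the levels of Thbs1 were seen) summed to 2948, 5126, 2914 and 4822 CPM in the mesenchyme; their part in the Thbs1 difference was not tested.

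Thbs4, a thrombospondin of tendon and muscle matrix, stood at 16.3, 37, 1.97 and 39.5 CPM, with a P0 over E13.5 ratio of 2.43-fold (1.65 to 3.63) that dropped under 2-fold when cells were thinned or weighed equally. Cthrc1, a secreted glycoprotein of activated fibroblasts, stood at 101, 74, 34.8 and 262 CPM: it was 2.92-fold (2.43 to 3.5) lower at E15.5 than at E13.5 and 7.53-fold (6.49 to 8.75) higher at P0 than at E15.5. Sparcl1 (hevin) stood at 22.7, 5.97, 11.4 and 165 CPM, 7.27-fold (5.45 to 9.87) higher at P0 than at E13.5. Spon1 (F-spondin) stood at 12.4, 8.35, 52.6 and 37.4 CPM, highest at E15.5.

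The last 5 genes were all called higher at P0 than at E13.5. Fn1 (fibronectin), on which fibrillin and collagen networks are laid down, stood at 377, 322, 313 and 3320.2 CPM. Over all mesenchymal cells together it was even over the embryonic stages and 8.8-fold (8.21 to 9.45) higher at P0 than at E13.5. Ecm1, a glycoprotein that binds other matrix proteins, stood at 7.7, 15.51, 35 and 138 CPM and was 18-fold (11.2 to 30.7) higher. Matn2 (matrilin-2) stood at 22.2, 47.7, 40 and 57 CPM and was 2.56-fold (1.85 to 3.59) higher. Mgp (matrix Gla protein), an inhibitor of calcification, stood at 21, 4.77, 2.81 and 63.9 CPM, a U-shaped course with a ratio of 3.05-fold (2.2 to 4.29). Cilp (cartilage intermediate layer protein) had 0, 1, 0 and 87 UMIs, or 35.4 CPM at P0, at least 27.6-fold above the limit of 3 counts at E13.5.

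Of 52 other matrix genes (laminins, nidogens, glypicans, collagen-processing proteins and the like, listed with earlier results known), 31 could be tested between E13.5 and P0. Of these, 19 were called higher and 5 lower, with a median ratio of 3.85. The largest ratios belonged to Tnxb (tenascin-X), at 0.428, 2.39, 3.8 and 902 CPM from 1 UMI at E13.5, Pcolce2 at 0.855, 0, 3.66 and 167 CPM, and Dpt (dermatopontin) at 8.55, 168, 218 and 1150.1 CPM. Agrn (agrin) stood at 40.6, 50.1, 20 and 4.07 CPM, Egflam (pikachurin) at 19.2, 10.7, 23.4 and 2.85 CPM, and the glypican Gpc1 at 39.3, 41.8, 53.1 and 8.95 CPM: these had the lowest ratios, 9.98-fold (5.2 to 21.5), 6.76-fold (3.02 to 17.8) and 4.39-fold (2.74 to 7.35) lower at P0. The 3 highest on average were Gpc3 at 1044, 752, 285 and 1668 CPM, Nid1 (nidogen-1) at 92.4, 181, 104 and 1699.98 CPM and Pcolce, the procollagen C-proteinase enhancer, at 87.7, 121, 245 and 1125 CPM.

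The second question the rule sets is how far these genes belong to the mesenchyme, with the epithelium of the same library as the contrast. At E13.5, 30 of 32 members tested were at least 2-fold higher in mesenchyme and 1 was 2-fold lower, where 17.8% and 9.33% of all 8413 genes were. At E14.5, 28 of 29 were higher and 0 lower (18.4% and 13.47% of all 8818 genes). At E15.5 the counts were 31 and 1 of 33 (17.3% and 14.2% of 7877 genes), and at P0 33 and 1 of 37 (17.3% and 23.1% of 7715 genes). The median mesenchyme over epithelium ratio of the members was 11.9, 16.2, 14.2 and 38.8 in the order of the stages. The cells had been divided by collagen and keratin UMIs, so the 2 classes were made unlike in genes that go with collagen. With median-of-ratios scaling the share of called genes that were higher in mesenchyme went from 65.6% to 53.2% at E13.5 and from 42.8% to 56.5% at P0, and the members called higher were 29 of 31 and 33 of 37.

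**Figure D3:**
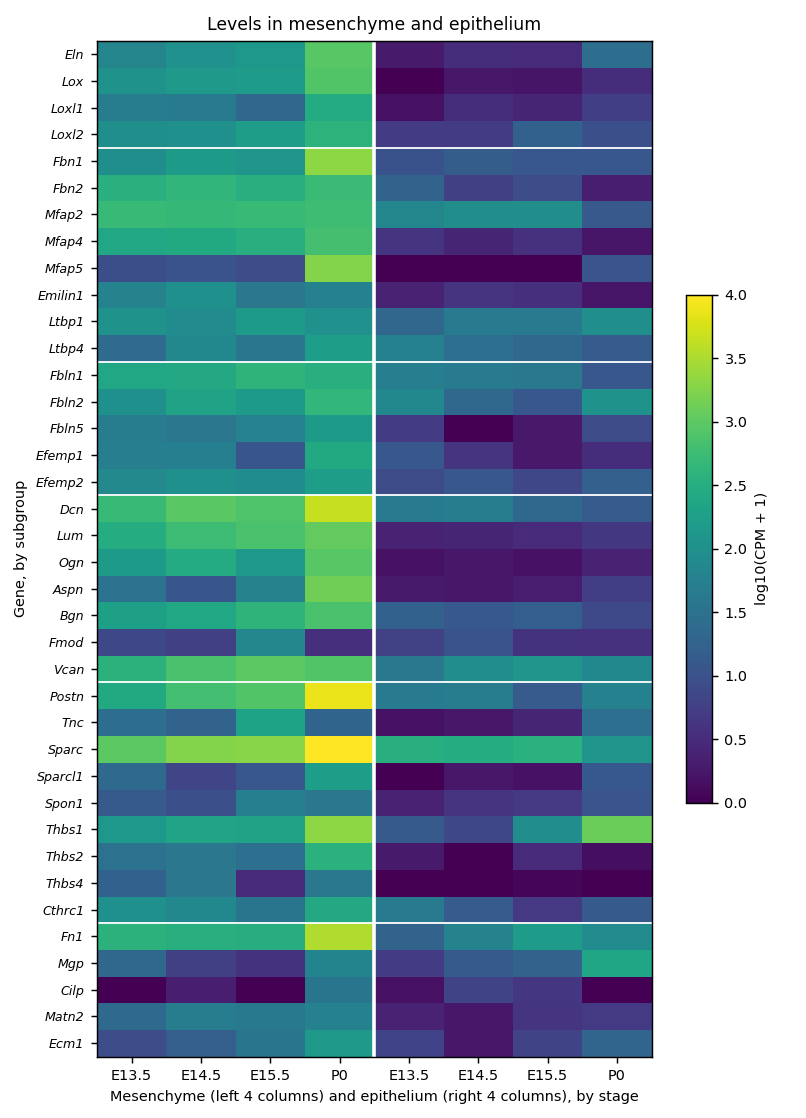
Colour gives the level of each gene as log10(CPM + 1) in the mesenchyme (left 4 columns) and the epithelium (right 4 columns) of each stage, youngest first, with white lines between kinds of matrix gene. The right side is dark for most genes; Thbs1 and Mgp at P0 and Sparc, Mfap2, Vcan and Fn1 in the embryo stand out.

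Free RNA can put UMIs of a mesenchymal gene into epithelial cells. As a yardstick, 7 of the mesenchyme markers (Col5a1, present in epithelium at up to 37.7 CPM, left out) had an epithelial level of at most 0.488%, 0.819%, 1.19% and 0.933% of the mesenchymal one, youngest stage first. Above the highest of these lay 32, 30, 31 and 23 of the 38 members. Col5a1 itself lay at 15.6%, 10.3%, 8.93% and 0.379%. With Col5a1 kept in the yardstick, fewer members would lie above it at each embryonic stage. The share of all genes above these limits was not computed. Whether the UMIs of these members came from epithelial cells was not tested. The share at P0 has the higher mesenchymal level of that stage in its denominator.

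Elastin and the lysyl oxidases were sparse in epithelium. Lox was at 0, 0.785, 0.706 and 2.3 CPM there, and its mesenchyme over epithelium ratio at P0 was 352-fold (161 to 959). Eln was at 0.98, 2.36, 1.98 and 26.5 CPM, and Mfap4 at 2.94, 1.57, 2.75 and 0.767 CPM, with mesenchyme 857-fold (237 to 7085) higher at P0. Ogn reached at most 1.53 CPM in any epithelium and Thbs4 had 2 UMIs in all, both at E15.5.

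A few genes had a clear epithelial level. Sparc was at 323, 294, 357 and 119 CPM in epithelium, found in 78.6%, 97.8%, 94.5% and 50.2% of cells, with mesenchyme 3.09-fold (2.83 to 3.37) higher at E13.5 and 81.3-fold (72.7 to 91.2) higher at P0. Mfap2 was at 66.6, 92.7, 95.2 and 12.3 CPM: high through the embryo, where mesenchyme exceeded it 7.35-fold (6.15 to 8.85) at E13.5 and 5.39-fold (5.07 to 5.75) at E15.5, and low at P0. Vcan was at 38.7, 95, 122 and 73.6 CPM and Fn1 at 17.6, 59.7, 156 and 85.5 CPM; Fn1 at E15.5 was the gene nearest to the 2-fold limit, with mesenchyme 2.0-fold (1.89 to 2.12) higher.

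Thbs1 was shared by both classes at P0. In epithelium it stood at 12.7, 6.28, 89 and 1250.2 CPM and was found in 14.3%, 13.3%, 57.4% and 87.3% of the cells, so that the mesenchyme over epithelium ratio was 10.4-fold (6.97 to 16.2) at E13.5, 34.4-fold (17.1 to 80.8) in the E14.5 library, 2.29-fold (2.12 to 2.47) at E15.5 and 1.65-fold (1.58 to 1.73) at P0, the last not called. Within the P0 epithelium Thbs1 was at 1753, 1447, 161 and 2246 CPM in 4 clusters of 92, 73, 45 and 19 cells. The low one was the cluster led by Cited1 and proliferation genes. The same 6 dissociation genes summed to 2230, 3369, 3161 and 2140 CPM in epithelium, and their part in its Thbs1 level was not tested.

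Ltbp1 was likewise alike in both classes at P0, at 98.1 CPM in epithelium and 103 CPM in mesenchyme, a ratio of 1.05-fold (0.878 to 1.25). Its epithelial levels were 19.6, 43.2, 44.3 and 98.1 CPM, in the order of age. Ltbp4 went the other way: in epithelium it stood at 56.3, 28.3, 21.8 and 13.4 CPM, lower at each later stage, and was 2.35-fold (1.69 to 3.3) lower in mesenchyme than in epithelium at E13.5 but 12.6-fold (8.95 to 18.4) higher in mesenchyme at P0.

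Mgp changed sides as well. In epithelium it stood at 3.92, 12.6, 17.8 and 230.4 CPM, in order of age, and in mesenchyme at 21, 4.77, 2.81 and 63.9 CPM, so that mesenchyme was 5.35-fold (2.51 to 13.1) higher at E13.5 and 6.32-fold (4.01 to 10.5) lower at E15.5, with 3.61-fold (3.02 to 4.33) lower at P0. Without cells that carried markers of another cell type the E13.5 ratio was 2.42-fold. It still passed 2-fold but was no longer called, because the mean level was under 10 CPM. That setting kept 44 of the 98 epithelial and 101 of the 129 mesenchymal cells of E13.5. Of the 98 epithelial cells, 53 had 3 or more UMIs of the cartilage and bone genes, which include Sox9. Its P0 epithelial UMIs came from few cells: the 10% with most held 85.5%. By cluster they were at 12.6, 53.3, 533 and 741 CPM; the lowest was led by Nedd9 and Cxcl17, the next by Apod and Col9a1, and the 2 high ones by Cited1 with proliferation genes and by Acta2 and Myh11. The last of these, 19 cells with genes of contractile cells in the lead, also had the highest epithelial Sparc (774 CPM), Fbln2 (363 CPM) and Vcan (215 CPM).

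Dcn was found in a subset of embryonic epithelium with little Lum. At E13.5 it was at 78.1, 0 and 2.69 CPM in 3 epithelial clusters, in the first of which 71.1% of 45 cells had a Dcn UMI, beside 87 UMIs of Dcn and 2 of Lum. Fbln2 was in the same cluster, at 130.2, 1.8 and 10.8 CPM over the 3 clusters. At E15.5 Dcn was at 13.4, 0.968, 8.89, 6.01, 186 and 0 CPM over 6 clusters; the fifth, 44 cells with Has2, Slc1a3 and Il24 among its leading genes, held 201 UMIs of Dcn and 2 of Lum. In the mesenchyme of the 2 stages Dcn and Lum stood at 491 and 296 CPM and at 801 and 712 CPM. The source of the Dcn UMIs in epithelium was not tested.

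Within the mesenchyme of a stage, cells were clustered without the 38 genes and the collagen genes, so that these genes did not themselves define the clusters. Other matrix genes were not left out. The clusters are thus not independent of the matrix as a whole. At E13.5 there were 3 clusters. The first (65 cells, led by Ebf2 and Ebf3) was dermal mesenchyme-like (markers Plagl1, Cdkn1c, Fgf10, Fzd4 and Tgfb2, 3 of them detected); the second (39 cells, led by Casz1 and Enpp2) was sub-epithelial mesenchyme-like (markers including Esr1, Lef1, Crabp1 and Bmp4); the third (25 cells) was led by proliferation genes. Of 34 members tested, 16 had their highest cluster at least 2-fold above the lowest, beside 28.1% of all 8561 genes. With 2 clusters at a lower resolution the count was 10 of 34, beside 11.9% of all genes.

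At E15.5 there were 4 clusters. The sub-epithelial mesenchyme-like one had 76 cells (led by Pla2g7 and Hopx), the dermal mesenchyme-like one 74 (led by Nrk and Itm2a), and a proliferating one 68. The fourth (61 cells, led by Gal, Tac1 and Sfn) stayed unnamed, with epithelial markers at 88.7 CPM against 26.1 to 43.2 CPM in the other 3. Of 34 members, 24 had clusters at least 2-fold apart, beside 31.7% of all 7792 genes.

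The dermal mesenchyme-like cells were the matrix-rich ones at both stages, and more so at E15.5. At E13.5, of 34 members tested 1 was at least 2-fold higher in the sub-epithelial than in the dermal mesenchyme-like cluster and 11 were lower (6.86% and 6.63% of all 8400 genes). At E15.5, 4 of 35 were higher and 21 lower (7.13% and 7.43% of all 7673 genes). These are clusters of 1 library at each stage, and cells of a cluster are not replicates.

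**Figure D4:**
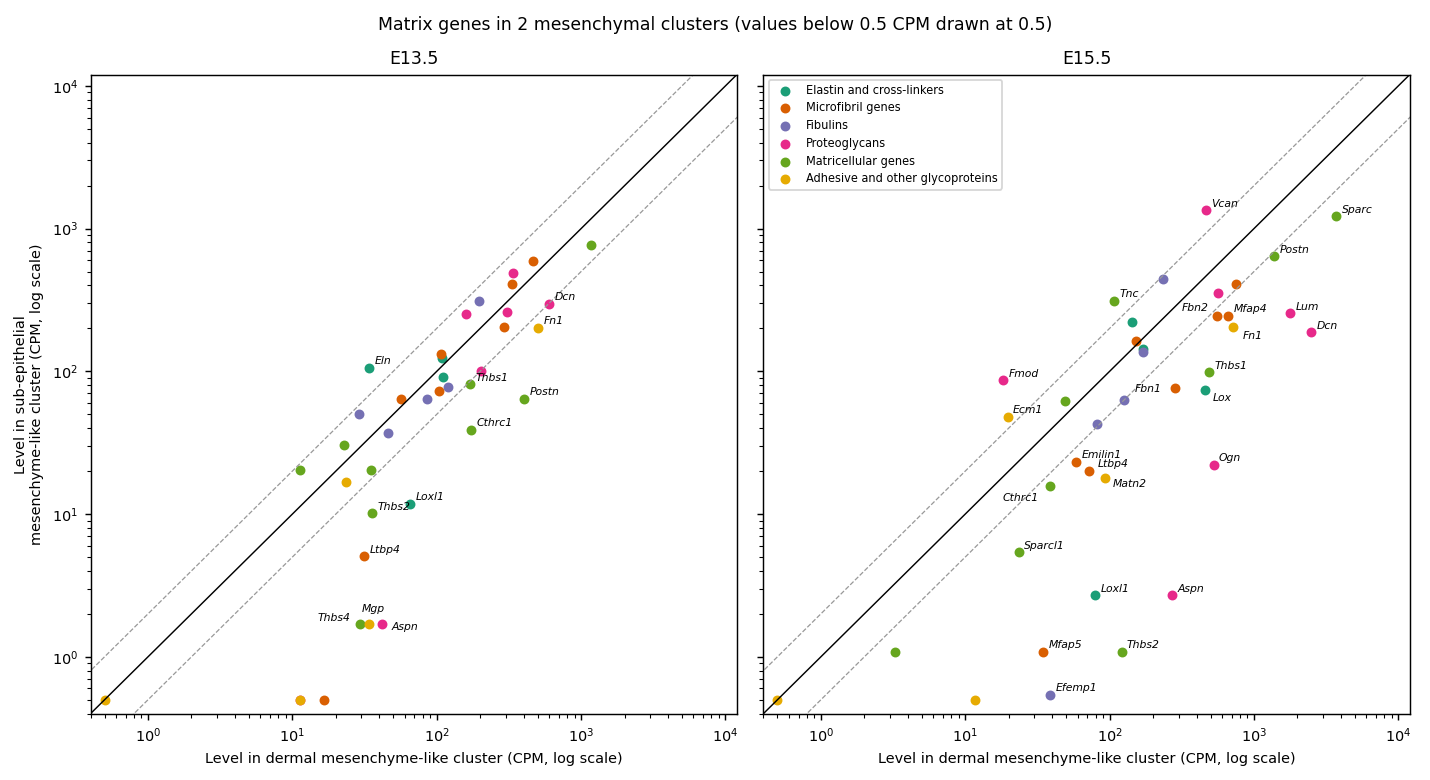
Each point is 1 of the 38 genes: its level in the dermal mesenchyme-like cluster (x axis, CPM) against that in the sub-epithelial mesenchyme-like cluster (y axis, CPM), both on log axes, at E13.5 (left) and E15.5 (right). The solid line marks equal levels, dashed lines 2-fold, and names mark genes past 2-fold that could be tested; most named genes lie below the lines, with Vcan, Tnc, Fmod and Ecm1 above them at E15.5.

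Dcn, Ogn, Aspn and Lum, small leucine-rich proteoglycans, lay far apart between these clusters at E15.5. Dcn was at 2491 CPM in the dermal and 188 CPM in the sub-epithelial mesenchyme-like cluster, 13.2-fold (11.9 to 14.8) apart, where at E13.5 the values were 602 and 297 CPM. Ogn was at 525 and 22.2 CPM at E15.5, and Aspn at 271 and 2.7 CPM, 100.4-fold (42.7 to 311) apart. Lum was at 1782 and 256 CPM at E15.5, and at E13.5 at 307 and 261 CPM, a ratio short of 2-fold. Bgn, of the same family, stayed short of 2-fold at both stages. Thbs2 was at 121 CPM in dermal and 1.08 CPM (2 UMIs) in sub-epithelial mesenchyme-like cells, 112-fold (30.6 to 931) apart.

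Several elastic fiber genes were also higher on the dermal side at E15.5. Lox was at 459 CPM there and 73.5 CPM in sub-epithelial mesenchyme-like cells, 6.25-fold (5.19 to 7.56) apart; at E13.5 it had been at 109 and 123 CPM, with no call. Fbn1 was 3.71-fold (3.06 to 4.52) higher in dermal cells, Mfap4 2.7-fold (2.41 to 3.02), Fbn2 2.3-fold (2.05 to 2.59) and Ltbp4 3.6-fold (2.46 to 5.37). Loxl1 was dermal at both stages, at 65.4 against 11.8 CPM at E13.5 and 79.8 against 2.7 CPM at E15.5. Eln went against this order at E13.5, the 1 member called higher in sub-epithelial cells: 106 CPM against 34 CPM, 3.12-fold (2.06 to 4.78). At E15.5 Eln was even, at 144 and 170.01 CPM.

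The genes on the sub-epithelial side at E15.5 were Vcan, Tnc, Fmod and Ecm1. Vcan, which the study itself chose from these cells as a marker of sub-epithelial mesenchyme, was at 1342 against 462 CPM, 2.91-fold (2.67 to 3.16). By RNA in situ hybridization on E15.5 sections the study also found Vcan enriched in the mesenchyme around the bud. Tnc was at 311 against 108 CPM, 2.88-fold (2.42 to 3.45), and Fmod at 86.5 against 18.3 CPM, 4.72-fold (3.15 to 7.33). Tnc and Fmod, the genes that peaked at E15.5, were thus both called higher in the sub-epithelial than in the dermal mesenchyme-like cluster of that stage. Ecm1 was at 48.1 against 19.6 CPM, 2.45-fold (1.6 to 3.84). These genes were not particular to the sub-epithelial mesenchyme-like cluster. In the proliferating and unnamed clusters they also lay above the dermal level: Vcan at 1107 and 879 CPM, and Tnc at 191 and 214 CPM. Fmod was at 84.3 and 77.6 CPM there, and Ecm1 at 39.6 and 26.6 CPM. The sub-epithelial markers themselves summed to 1582 CPM in the proliferating and 1237 CPM in the unnamed cluster. They summed to 1676 CPM in the sub-epithelial and 389 CPM in the dermal mesenchyme-like cluster. By these markers the proliferating and unnamed clusters were nearer to the sub-epithelial than to the dermal mesenchyme-like one.

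Across the 279 cells of the E15.5 mesenchyme, thinned to 5000 UMIs, Dcn and Lum had the most alike patterns of the 55 pairs among the 11 members found in at least 50% of cells (Spearman's rho 0.73, median of the pairs 0.18). The genes lie side by side on chromosome 10 with no protein-coding gene between them and 47.0 kb apart (GENCODE M21, GRCm38). The lowest rho, -0.41, belonged to Dcn and Vcan. Within single clusters rho was 0.12 to 0.77 for Dcn and Lum and -0.36 to 0.06 for Dcn and Vcan. For Dcn and Lum it was 0.12 in the dermal and 0.36 in the sub-epithelial mesenchyme-like cluster, 0.58 in the proliferating and 0.77 in the unnamed one. For Dcn and Vcan it was 0.06, 0.02, -0.09 and -0.36 in the same order. All cells share 1 library, so these are descriptions.

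The P0 mesenchyme gave 5 clusters. Cluster 0 (60 cells) was Col15a1 fibroblast-like by markers among Col15a1, Fabp4, Pparg, Aoc3 and Col4a1, with Timp1, Fabp4 and interferon-response genes such as Iigp1 and Gbp2 among its leading genes. Cluster 2 (53 cells, led by Fgl2, Tlr2 and Procr) and cluster 3 (49 cells, led by Hpgd, Tmem100 and Pecam1, an endothelial gene) were Pi16 fibroblast-like by the markers Pi16, Dpp4, Sema3c, Wnt2 and Cd55. Endothelial markers summed to 111 CPM in cluster 3 and to 5.65 to 25.2 CPM in the other 4; their part in its levels was not tested. Cluster 1 (58 cells) had Epcam and Krt8 among its leading genes, epithelial markers at 170.3 CPM and red blood cell genes at 18206 CPM against 15.1 to 30.0 CPM in the others. Only 2 of the 265 P0 mesenchymal cells had 3 or more UMIs of red blood cell genes, so that level is not a trait of most of its cells. All 5 Col15a1 fibroblast markers were detected in cluster 1, but it was left without a name because Epcam and Krt8 go against that name. Cluster 4 (45 cells) was led by Cilp and Thbs4, themselves members, by Acta1, a skeletal muscle actin, and by Mgp, and stayed unnamed too. Epithelial markers stood at 164 CPM there, against 18.8 to 65.6 CPM in clusters 0, 2 and 3. The 4 skeletal muscle markers summed to 10.6 CPM in cluster 4, all from Myod1, and to 0 in clusters 0 to 3. Only 1 of the 265 P0 mesenchymal cells had 3 or more UMIs of these muscle markers.

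Of 37 members tested at P0, 27 (73.0%) had clusters at least 2-fold apart, beside 63.9% of all 7253 genes. With 3 clusters at a lower resolution the shares were 62.2% of the members and 36.0% of all genes, and with log-normalization 67.6% and 51.1%. The 10 that varied less than 2-fold were Lox, Loxl2, Mfap2, Fbln2, Fbln5, Dcn, Lum, Vcan, Postn and Thbs2.

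**Figure D5:**
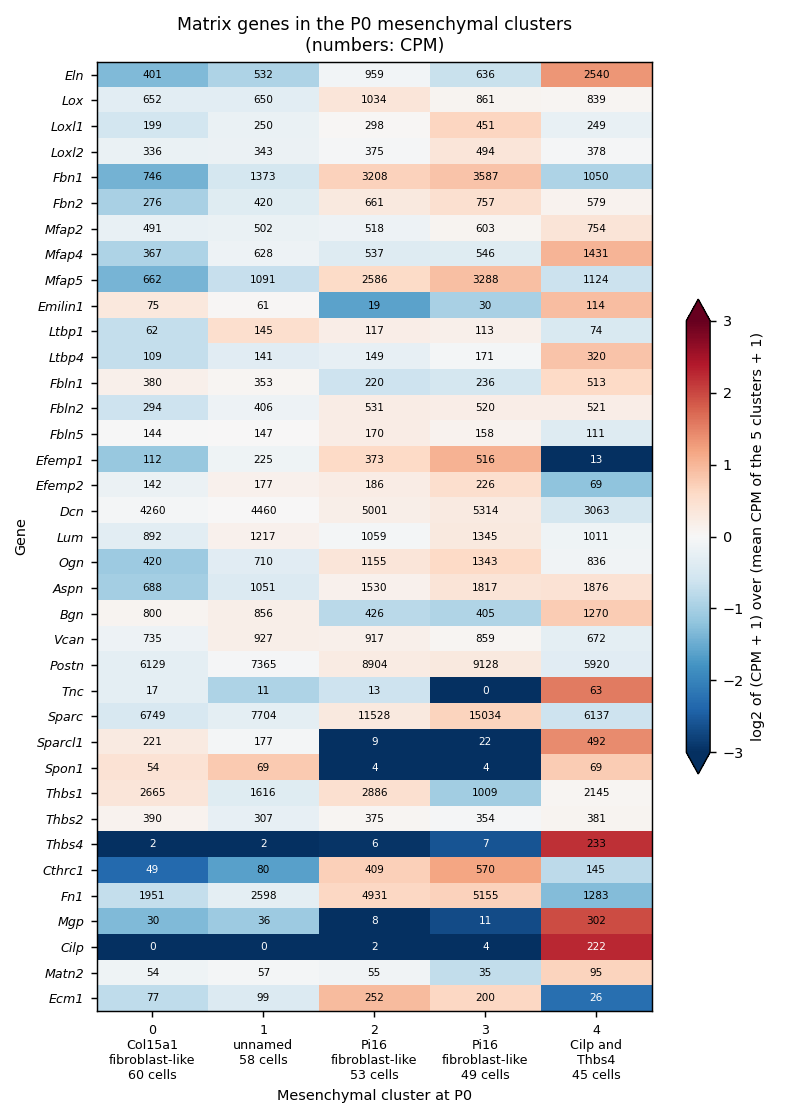
Level of the 37 genes of at least 10 CPM in the 5 mesenchymal clusters at P0. Numbers are CPM and colour is the log2 of the level over the mean of the clusters, with 1 CPM added to both; red in clusters 2 and 3 marks Fbn1, Mfap5, Fn1, Efemp1 and Cthrc1, red in cluster 4 marks Eln, Mfap4, Thbs4, Mgp, Cilp, Sparcl1 and Tnc.

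Fbn1, Mfap5, Fn1 and Sparc were highest in the Pi16 fibroblast-like cells. Fbn1 was at 746, 1373, 3208, 3587 and 1050.2 CPM in clusters 0 to 4 in order, and Mfap5 at 662, 1091, 2586, 3288 and 1124 CPM. Fn1 was at 1951, 2598, 4931, 5155 and 1283 CPM, and Sparc at 6749, 7704, 11528, 15034 and 6137 CPM. All 4 had their 2 highest clusters in 2 and 3. Efemp1, at 112, 225, 373, 516 and 13.2 CPM, Cthrc1, at 48.7, 79.9, 409, 569.7 and 145 CPM, and Ecm1, at 76.8, 98.8, 252, 200.4 and 26.5 CPM, were also highest in clusters 2 and 3, and Efemp1 and Ecm1 were lowest in cluster 4.

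Elastin had another place. Eln was at 401, 532, 959, 636 and 2539.6 CPM, highest in cluster 4, 6.33 times the lowest cluster. Mfap4 was at 367, 628, 537, 546 and 1431 CPM and Ltbp4 at 109, 141, 149, 171 and 320.1 CPM, both highest in the same cluster, as was Bgn at 800.3, 856, 426, 405 and 1269.8 CPM. In cluster 4, 68.9% of cells had an Eln UMI, no larger a share than in clusters 2 and 3 (81.1% and 75.5%), so the higher sum came from more UMIs in the cells that had any. Elastin and fibrillin-1, partners in the elastic fiber, were thus at their highest in different clusters. From the same P0 library the study described a fibroblast cluster with elevated Eln, Mfap4 and Mgp, genes it calls typical of myofibroblasts. Whether cluster 4 holds the same cells was not tested.

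Cluster 4 held most transcripts of Thbs4, Cilp and Mgp. Thbs4 had 88 of its 97 P0 UMIs there, at 1.87, 2.1, 5.65, 7.42 and 233 CPM over the clusters; Cilp had 84 of 87, and Mgp 114 of 157, at 30, 35.7, 7.53, 11.1 and 302 CPM. Cilp was found in 55.6% of these cells and had 0 UMIs in clusters 0 and 1. Pericyte and smooth muscle markers summed to 129.6 CPM in cluster 4 and to 32.0 to 81.6 CPM elsewhere; their part in these levels was not tested. Sparcl1 was at 221, 177, 9.42, 22.3 and 492 CPM and Spon1 at 54.4, 69.4, 3.77, 3.71 and 68.8 CPM, both lowest in the Pi16 fibroblast-like clusters. The study lists Sparcl1 among the genes high in its Col15a1-positive population. Here its level was higher in cluster 4 than in cluster 0, the Col15a1 fibroblast-like one.

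Across the 265 P0 mesenchymal cells, thinned to 5000 UMIs, 23 members were found in at least 50% of cells. Of the 253 pairs, Fbn1 and Fn1 were most alike (rho 0.78, median of the pairs 0.15), then Fbn1 and Mfap5 (0.69). The relation of Fbn1 and Fn1 was present within each cluster, at 0.36 to 0.74, and that of Eln and Mfap4, 0.50 over all cells, at 0.44 to 0.73. For Fbn1 and Mfap5 rho was 0.26 and 0.22 in the Pi16 fibroblast-like clusters 2 and 3. In the other clusters it was 0.36 to 0.67. Ogn and Aspn, neighbours on chromosome 13 that are 40.5 kb apart with Omd between them, had a rho of 0.49. Bgn and Fn1 had the lowest rho, -0.30.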

How the data were processed

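For each stage the authors deposited 1 table of counts (UMIs per gene and cell barcode, no normalization), made with 10x Cell Ranger 6.0.0 on mm10 per the labels; the header of the E15.5 table names 3.1.0. The unit is the count. Female embryos were pooled, each stage was dissected in a separate session, and P0 tissue had other enzyme amounts and red blood cell lysis. Genes were matched by Ensembl identifier (30406 shared). The members and lists were chosen with earlier results of these data known; all 38 members are named, and of 52 other matrix genes the 3 highest, the 3 with the largest rise and the 3 with the largest fall. Levels are summed counts per 1000000; intervals are exact 95% Poisson and conditional binomial ones and cover counting error only. Against 0 counts a floor of 3 was used. Ratios and their intervals were tried on simulated Poisson counts with known folds, the same counting error that the intervals assume. That trial cannot show the effect of uneven levels between cells. Clusters came from Seurat 5.3.0 with sctransform 0.4.2 (2000 variable genes, 15 components, resolution 0.8). Members and collagens were kept out of the variable genes. A name needed 3 of its markers in at least 25% of cells, and higher levels of the list than in the other cells. P0 cluster 1 met this but was left unnamed because Epcam and Krt8 were among its leading genes. Cluster 3 of P0 kept its name although Pecam1 was among its leading genes. No doublet caller was run; the authors gated doublets out in the sort, and the class rule removes mixed epithelial and mesenchymal cells in part. Barcodes outside the filters were not used here. A marker used in naming clusters is not reported here.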

Additional observations from a re-analysis of the deposited data

Results flagged for a closer look

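Ltbp4 and Mgp lay on opposite sides of the mesenchyme and epithelium at different stages, in each case past 2-fold with an interval that left out 1. For Ltbp4 the log2 ratio of mesenchyme over epithelium was -1.23 at E13.5 and 3.66 at P0, a difference of 4.89. For Mgp it was 2.42 at E13.5 and -2.66 at E15.5, a difference of 5.08; the E13.5 ratio was 2.42-fold and not called without cells with markers of another cell type. With 1 library per stage the differences between stages were not tested. At E13.5 most of the epithelial cells lay outside the set of mammary epithelial cells that the study kept. The share of skin cells in the epithelium was not measured here, and its part in these values was not tested.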

How the results depend on the processing

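With 1 library per stage no replicate can be left out. No paired analysis was possible because each stage has 1 library and no result comes from a test. Over 9 other settings, 1740 of 2168 single-gene log2 ratios stayed within their counting interval, 428 moved past it and 0 of the called ones changed sign. Without cycling cells, the members lower at E15.5 than at E13.5 went from 4 to 2 (Loxl1 and Efemp1 fell short) and those lower in mesenchyme than in epithelium at E14.5 from 0 to 1. With no level minimum, the members lower at P0 than at E13.5 went from 0 to 1, and those lower in mesenchyme from 0 to 2 at E14.5 and from 1 to 2 at E15.5. At clustering resolution 0.4, 10 members in place of 16 were apart at E13.5. With E14.5 in place of E13.5, chosen after seeing the data, 5 members in place of 9 were higher and 7 in place of 4 lower at E15.5. The causes were not tested. Calls close to 2-fold that did not hold in every setting were Mfap4 at P0 against E15.5 (1.66-fold without cycling cells), Eln at E15.5 against E13.5 (1.76-fold in thinned cells), Thbs4 (1.77-fold in thinned cells) and Cthrc1 (1.90-fold with cells weighted equally) at P0 against E13.5, and Fn1 in mesenchyme against epithelium at E15.5 (1.84-fold with median-of-ratios scaling). Without cells with markers of another cell type, Mgp in mesenchyme against epithelium at E13.5 went from 5.35-fold to 2.42-fold. It was no longer called because its mean level was under 10 CPM. That setting kept 44 of the 98 epithelial cells at E13.5 and 70 of the 526 at E15.5. Few cells (31 in the mesenchyme at E14.5) and low levels limit the precision.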
